A study of Mus musculus with 6 samples.

Results

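The contractile isoforms described here are 7 genes of the 56748 in a table of RNA-seq counts from mouse heart: the myosin heavy chains Myh6, Myh7 and Myh7b, the sarcomeric actins Acta1 and Actc1, and the inhibitory troponins Tnni1 and Tnni3. They were chosen by gene name, and each name matched 1 row. The hearts came from Pontin cTG mice, which express flag-tagged human Pontin in cardiomyocytes from the α-myosin heavy chain promoter, and from WT littermates without the transgene, with 3 libraries in each group. Per the study's methods both groups were male, on a C57Bl/6 background and 10 weeks old at the start of treatment. Both then received angiotensin II (Ang-II) at 1.5 mg/kg body weight/day for 14 days by mini-osmotic pump. Ang-II is a vasoconstrictor peptide that raises blood pressure and makes the heart hypertrophy. The transgenic founders came from injected embryos, and the founder line behind these libraries is not given in the sources used here. No untreated library was part of the comparison, so the values describe genotype within Ang-II treatment and not the response to Ang-II itself.

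The sarcomere of the mouse heart is built from different members of the same gene families before and after birth. The foetal ventricle uses β-myosin heavy chain (Myh7) and slow skeletal troponin I (Tnni1), and it expresses skeletal α-actin (Acta1) beside cardiac α-actin (Actc1). After birth α-myosin heavy chain (Myh6), the faster motor, and cardiac troponin I (Tnni3) take their places, and under pressure overload the foetal myosin and actin are commonly re-expressed while the troponin switch is held to be permanent. Pontin (Ruvbl1) is an ATPase of chromatin remodelling complexes. The comparison asked whether extra Pontin in cardiomyocytes moved the balance between the foetal and the adult isoform of each pair.

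Each of the 3 myosin genes carries a microRNA in an intron, and the mature sequences are shown because they tie the hosts into a known family of heart microRNAs. The mature forms, from RefSeq on GRCm38.p6, are given from 5′ to 3′ with the seed (bases 2 to 8) in capitals. miR-208a lies in intron 29 of 38 of Myh6 (chr14:54949072-54949093, minus strand), miR-208b in intron 31 of 40 of Myh7 (chr14:54975710-54975731, minus strand) and miR-499 in intron 19 of 41 of Myh7b (chr2:155622893-155622913, plus strand).

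mmu-miR-208a-3p: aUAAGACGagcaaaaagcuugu

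mmu-miR-208b-3p: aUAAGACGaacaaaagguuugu

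mmu-miR-499-5p: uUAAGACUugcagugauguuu

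miR-208a and miR-208b had the same seed and were identical at 19 of 22 positions, while the seed of miR-499 ended in a different base. Mature microRNAs were not measured by these libraries.

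The start region of Myh6 is shown because the Myh6 promoter drove the transgene, and that of Acta1, Actc1 and Myh7 because these are the partners in the ratios below. Each run is 300 bases of RefSeq sequence on GRCm38.p6, from 250 before the annotated start to 50 after it, written along the gene's own strand. For Myh7, which has more than 1 annotated start, the upstream window is given. Capitals mark the MCAT box CATTCC, read on both strands (GGAATG on the other), which binds TEAD factors, and the TATA box TATAAA.

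Myh6, chr14:54966558-54966857, minus strand: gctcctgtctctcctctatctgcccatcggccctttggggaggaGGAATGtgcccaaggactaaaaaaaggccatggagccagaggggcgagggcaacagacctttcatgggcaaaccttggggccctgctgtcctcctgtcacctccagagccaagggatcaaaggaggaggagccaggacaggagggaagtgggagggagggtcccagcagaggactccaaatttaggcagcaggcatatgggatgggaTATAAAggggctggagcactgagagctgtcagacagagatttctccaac

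Myh7, chr14:54994577-54994876, minus strand: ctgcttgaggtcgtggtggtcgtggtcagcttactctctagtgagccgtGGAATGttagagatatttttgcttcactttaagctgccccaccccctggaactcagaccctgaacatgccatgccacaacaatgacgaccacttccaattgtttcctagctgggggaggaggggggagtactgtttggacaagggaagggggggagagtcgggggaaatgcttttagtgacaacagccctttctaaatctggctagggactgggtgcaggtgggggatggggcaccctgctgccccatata

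Acta1, chr8:123894726-123895025, minus strand: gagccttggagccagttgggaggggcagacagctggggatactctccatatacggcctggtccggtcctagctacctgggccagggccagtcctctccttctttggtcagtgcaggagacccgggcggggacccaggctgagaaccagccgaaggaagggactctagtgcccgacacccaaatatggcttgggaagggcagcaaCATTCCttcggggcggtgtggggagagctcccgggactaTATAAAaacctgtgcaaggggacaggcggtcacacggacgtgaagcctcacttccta

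Actc1, chr2:114052826-114053125, minus strand: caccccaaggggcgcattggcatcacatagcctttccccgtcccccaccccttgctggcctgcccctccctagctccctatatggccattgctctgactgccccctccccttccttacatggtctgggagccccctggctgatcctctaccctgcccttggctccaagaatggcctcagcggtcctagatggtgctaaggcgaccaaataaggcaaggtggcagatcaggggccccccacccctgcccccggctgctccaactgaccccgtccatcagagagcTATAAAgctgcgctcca

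An MCAT box was found in the windows of Myh6 and Acta1 and in the upstream window of Myh7. None was found in the downstream Myh7 window (chr14:54994500-54994799) or in the windows of Actc1, Myh7b, Tnni1 and Tnni3, and 14.7% of 32851 mouse start windows of this length held one. The TATA box was in the windows of Myh6, Acta1 and Actc1, and in 13.6% of all windows. A CArG box, the site of serum response factor, was in the Acta1 and Actc1 windows and in 1.63% of all windows. These matches describe the letters only.

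The 6 libraries held 12436822 to 16888124 assigned reads, all 3 Pontin cTG libraries more than any WT library, of which 23.8% to 26.7% were mitochondrial. Replicate 2 of Pontin cTG stood apart from the rest: on the first principal component of all tested genes, which took 48.6% of the variance, it scored 50.9 while the other 5 libraries lay between -23.1 and 16.2. Across the 9343 genes with a mean of at least 100 normalised counts, this library was the highest or the lowest of the 6 for 65.2%. Fold changes that turned or moved by over 1.5 times when 1 library was left out are given below with the value without it. The mouse Ruvbl1 row measured 216, 221 and 217 normalised counts in WT and 250, 250 and 240 in Pontin cTG. The Pontin cTG libraries were all above WT, as they were for 4.7% of all genes tested. The log2 fold change was 0.18 ± 0.12 (SE, edgeR quasi-likelihood unadjusted p = 0.177, Benjamini-Hochberg adjusted p = 0.999). The transgene is human, and how many of its reads fell on the mouse row was not tested.

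Cardiomyocyte markers (12 genes such as Actn2, Ryr2 and Tnnt2) summed to 42440 to 44110 CPM (counts scaled to the library total, before TMM), so the libraries carried the transcripts of the labelled tissue. Of the 12 skeletal muscle markers, Myh1, Myh4 and Tnnc2 were at 0 in all 6 libraries. The 12 genes summed to 34.9 to 63.0 CPM, mostly from Mybpc2, which had 533 to 758 reads in every library. The atrial genes Bmp10 and Sln reached at most 1 count in any library. The 9 atrial markers summed to 104 to 167 CPM in the WT group and between 67.6 and 640 in Pontin cTG, where the highest sum was mostly Nppa. Fibroblast markers (8 genes) summed to 1029 to 2187 CPM and endothelial markers (7 genes) to 834 to 1352 CPM, with the highest value of both in Pontin cTG replicate 2. The fibroblast sum was 2187 there and 2043 in WT replicate 2, against 1029 to 1322 in the other 4, and these are also the libraries with the most Myh7; the part of other cell types in the Myh7 values was not tested. In bulk heart tissue, fewer cells of a type and less RNA per cell cannot be told apart.

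Across all libraries the 7 isoforms kept the same order of level. Normalised counts per kb of gene length were highest for Actc1 (100300 to 112500), followed by Myh6 (28620 to 50380), Tnni3 (18580 to 25420), Acta1 (5336 to 13430), Myh7 (353 to 2415), Myh7b (64.2 to 231) and Tnni1 (0.241 to 1.24). The ranges of neighbours in this order did not overlap, so in each of the 6 hearts the adult partner of every pair was more abundant than the foetal one. By raw reads the 7 genes together took 3.86% to 5.58% of the non-mitochondrial counts, and Myh6 alone 1.77% to 3.26%.

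**Figure D1:**
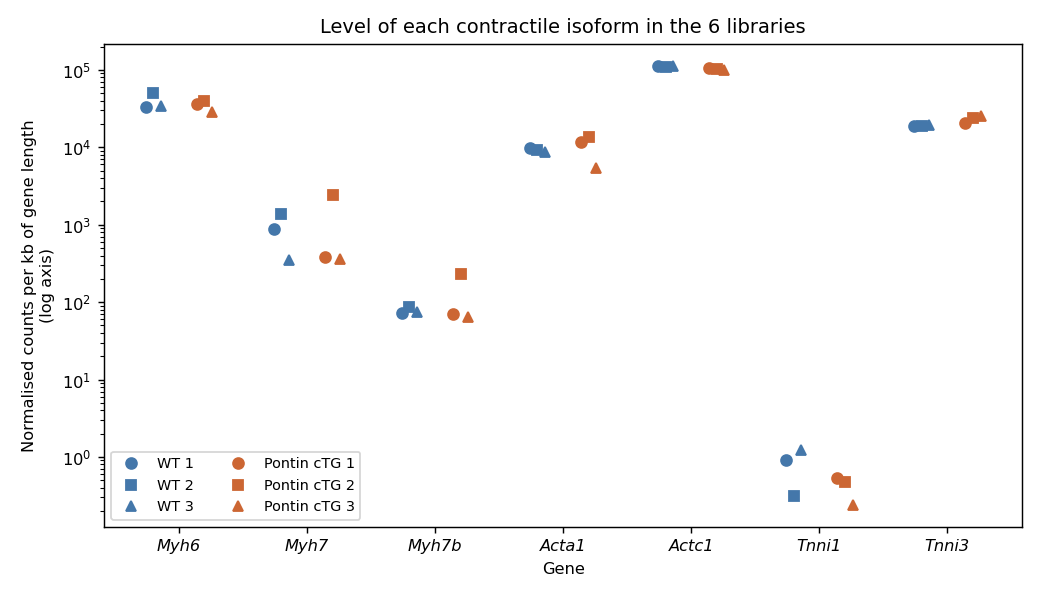
Normalised counts per kb of gene length (log axis) for the 7 isoforms, with blue symbols for WT, orange for Pontin cTG and the symbol shape for the replicate number. Actc1 is the highest in every library, from 100300 upwards, and Tnni1 lies near or below 1, while Myh7 and Myh7b are highest in Pontin cTG replicate 2.

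None of the isoforms passed the test between genotypes. In the edgeR quasi-likelihood fit over all 13888 genes with enough counts, 0 of the 6 isoforms tested were called at a Benjamini-Hochberg adjusted p under 0.05, where 0 of all genes tested, or 0%, were called. At an unadjusted p under 0.05 the count was 0 of 6, beside 2.05% of all genes. DESeq2 and limma-voom also called 0 isoforms, with 1 isoform each (Tnni3) at an unadjusted p under 0.05. Tnni1 fell below the count filter of the edgeR fit, and where it was tested its adjusted p was 1.0 (DESeq2) and 0.941 (edgeR without the filter). All adjusted p-values of the 6 tested members were 0.999 in the edgeR fit.

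Myh6 encodes α-myosin heavy chain, the principal motor of the adult mouse ventricle, and lies at chr14:55179378-55204384 on the minus strand of GRCm39, next to Myh7. Its normalised counts were 223200, 338900 and 233200 in WT and 243500, 264800 and 192500 in Pontin cTG. The groups overlapped, and WT replicate 2 was the highest library and Pontin cTG replicate 3 the lowest. The log2 fold change was -0.18 ± 0.19 (SE, 95% interval -0.62 to 0.25, edgeR unadjusted p = 0.368). Leaving out WT replicate 2 gave 0.03, and leaving out WT replicate 1 gave -0.29. Of the transgenic libraries, omitting replicate 2 gave -0.28 and omitting replicate 3 gave -0.06. Since the Myh6 promoter drives the transgene, any Myh6 leader sequence in the construct would be counted on this row, and whether the Myh6 counts included such reads was not tested.

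Myh7 encodes β-myosin heavy chain, the slower foetal motor, at chr14:55208141-55232083 on the minus strand. Normalised counts were 7476, 11960 and 3039 in WT and 3310, 20810 and 3080 in Pontin cTG. Pontin cTG replicate 2 was 6.84-fold above the lowest library, WT replicate 3, whereas the other Pontin cTG libraries lay close to that lowest WT value. The log2 fold change of 0.28 ± 0.77 (SE, 95% interval -1.49 to 2.04, edgeR unadjusted p = 0.729) had the widest interval of the 6 tested isoforms. Without Pontin cTG replicate 2 it was -1.23 (edgeR adjusted p = 0.889), without WT replicate 3 it was -0.09, without any of the other 4 libraries it was 0.28 to 0.78, and with the down-weighting of single libraries in limma-voom it was -0.74 (adjusted p = 0.914). The sign of the Myh7 difference therefore depended on 1 library in either group. Its range over the 6 libraries, 2.77 on the log2 scale, was exceeded by 22 of the 9343 genes with a mean of at least 100 normalised counts, for which the median range was 0.53.

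Myh7b, a sarcomeric myosin that is related to Myh6 and Myh7 but lies apart from them at chr2:155453132-155476227 on the plus strand, was a minor transcript. It had 479, 571 and 502 normalised counts in WT and 469, 1530 and 426 in Pontin cTG. The WT libraries were within a narrow band, and Pontin cTG replicate 2 stood 3.59-fold above the lowest library while its group mates were below all WT values. Between genotypes its log2 fold change was 0.65 ± 0.45 (SE, edgeR unadjusted p = 0.185), the largest of the tested isoforms, and -0.21 without that library (adjusted p = 0.889). Of the 9343 genes, 100 had a larger range than the 1.84 of Myh7b. Trpc4ap, whose annotated end overlaps that of Myh7b on the other strand, measured 1426 normalised counts in Pontin cTG replicate 2 and 1585 to 1726 elsewhere, so it did not share the high value.

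The Myh7 to Myh6 ratio within a library does not depend on scaling between libraries. Per kb, Myh7 stood at 2.62%, 2.76% and 1.02% of Myh6 in WT and at 1.06%, 6.13% and 1.25% in Pontin cTG. The 95% exact (Clopper-Pearson) counting interval for Pontin cTG replicate 2 was 6.05% to 6.21%, so counting error was small beside the spread between hearts; such intervals cover counting error only. The lowest WT library and 2 Pontin cTG libraries were close together, near 1%, and the other 3 libraries were above 2.6%. As a share of Myh6 and Myh7 together, Myh7 was 2.08% ± 0.93 (SD, n = 3) in WT and 2.69% ± 2.68 (SD, n = 3) in Pontin cTG. The mean log2 ratio was -5.69 ± 0.81 in WT and -5.64 ± 1.40 in Pontin cTG, a difference of 0.05 ± 0.93 (SE), with p = 0.9 in a two-sided exact permutation test over the 20 assignments. With 3 against 3 such a test cannot give a p under 0.1. Without Pontin cTG replicate 2 the difference was -0.75 and without WT replicate 3 it was -0.42.

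**Figure D2:**
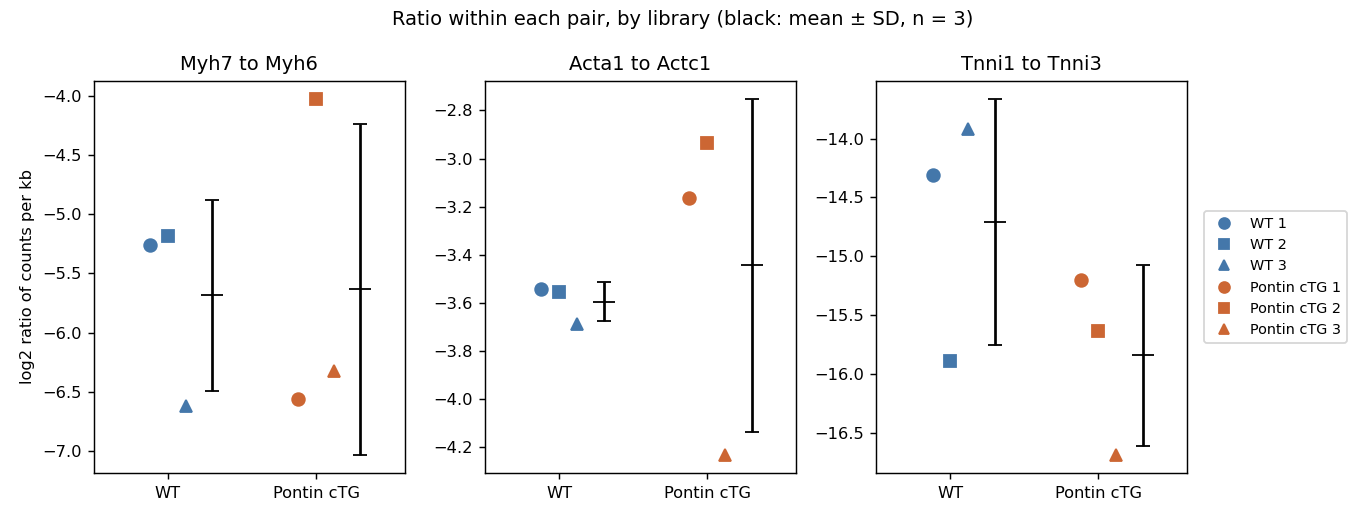
The log2 ratio of counts per kb within each pair (vertical axes, scaled separately for each pair) for the 3 WT and 3 Pontin cTG libraries, with black bars for the mean ± SD. The groups overlap in each panel, and Pontin cTG replicate 2 has the highest Myh7 to Myh6 ratio (-4.03) and the highest Acta1 to Actc1 ratio (-2.94).

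Several transcripts share the myosin loci, and they were added after their values were seen. Mhrt, a long non-coding RNA that overlaps the 3′ part of Myh7 on the opposite strand, had 247, 265 and 237 normalised counts in WT and 177, 633 and 184 in Pontin cTG. It was highest in the same library as Myh7 and had the same order among the WT libraries. Its WT spread was narrow, from 237 to 265, whereas Myh7 ranged from 3039 to 11960 there. Mhrt per kb was 8.43%, 5.65% and 19.9% of Myh7 in WT and 13.6%, 7.77% and 15.3% in Pontin cTG. Gm31251, which lies within Myh7 on the opposite strand, had 30.8, 53.8 and 11.2 normalised counts in WT and 15.6, 75.4 and 27.7 in Pontin cTG. At this low level it too had the same order as Myh7 among the WT libraries, and it was also highest in Pontin cTG replicate 2. Gm49130, antisense to the end of Myh6, had 31.9, 62.8 and 44.7 normalised counts in WT and 35.2, 233 and 31.2 in Pontin cTG, again with the highest value in Pontin cTG replicate 2. The kit named in the study's methods does not mark strand, and the strand setting of the counting is not given in the sources used here. With that kit, reads from these genes and from the myosin on the other strand could not be told apart by strand where they overlap. The Mhrt percentages carry this limit too.

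The rows of the hosted microRNAs hold reads over the hairpins, which lie in introns, and not mature microRNA. The Mir208b hairpin row, inside Myh7, had 27, 64 and 59 reads in WT and 33, 194 and 48 in Pontin cTG. It too was highest in Pontin cTG replicate 2, as were 27.4% of the 9343 genes. Among the WT libraries it was lowest in replicate 1, whereas Myh7 was lowest in replicate 3. The Mir208a row, inside Myh6, had at most 4 reads in any library, although Myh6 had at least 202682, and the Mir499 row, inside Myh7b, had 0 in all 6. Relative to its host, the Mir208b row was thus far better covered than the Mir208a row.

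Of the actins, Actc1 was the steadiest isoform. It encodes cardiac α-actin, the main actin of the adult sarcomere (chr2:113877763-113884029, minus strand). Normalised counts were 182000, 175500 and 180400 in WT and 169300, 166400 and 162300 in Pontin cTG. Every Pontin cTG library was below every WT library, by a log2 fold change of -0.11 ± 0.11 (SE, 95% interval -0.36 to 0.14, edgeR unadjusted p = 0.348). Groups did not overlap in this direction for 3.63% of all genes tested. In CPM without TMM scaling the groups overlapped, since WT spanned 12520 to 12630 and Pontin cTG 11100 to 12720. Among the 9343 genes, 9174 had a larger range over the libraries than the 0.165 of Actc1.

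Acta1, which encodes skeletal α-actin and is the actin of the foetal programme (chr8:124618508-124621490, minus strand), varied more between the transgenic hearts than between the WT hearts. Its normalised counts were 14830, 14160 and 13300 in WT and 17950, 20630 and 8196 in Pontin cTG. Replicates 1 and 2 of Pontin cTG lay above every WT library and replicate 3 lay below every WT library. By edgeR its log2 fold change was 0.15 ± 0.29 (SE, 95% interval -0.52 to 0.81, unadjusted p = 0.631). Leaving out Pontin cTG replicate 3 gave 0.45, leaving out replicate 2 of that group gave -0.11 and leaving out replicate 1 gave 0.04.

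Per kb, Acta1 was 8.59%, 8.50% and 7.77% of Actc1 in WT and 11.2%, 13.1% and 5.32% in Pontin cTG. The log2 ratio was -3.60 ± 0.08 (SD, n = 3) in WT and -3.44 ± 0.69 (SD, n = 3) in Pontin cTG. The mean difference was 0.15 ± 0.40 (SE, two-sided exact permutation p = 0.8), which became -0.10 when Pontin cTG replicate 2 was left out and 0.55 when replicate 3 was. The spread between the transgenic hearts was wider than between the WT hearts, and with 3 libraries a group this difference in spread was not tested. The sum of both actins per kb varied little, from 105700 to 122100 normalised counts.

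Tnni3 encodes cardiac troponin I, the inhibitory subunit of the adult thin filament, at chr7:4521304-4527228 on the minus strand. Normalised counts were 38340, 39060 and 39790 in WT and 42120, 50040 and 52440 in Pontin cTG. Every Pontin cTG library was above every WT library, as it was for 4.7% of all genes tested. The log2 fold change was 0.30 ± 0.14 (SE, 95% interval -0.005 to 0.61), a 1.23-fold difference with an unadjusted p of 0.053 and an adjusted p of 0.999 by edgeR, so it was not called. It was positive under all 14 alternatives, from 0.24 to 0.40. Where groups do not overlap, leaving out a library at the same scaling cannot turn the sign, so the constant sign adds little to the non-overlap. The same holds for Actc1, which stayed negative. The groups of Myh7, Myh7b and Acta1 overlapped, and their sign turned when Pontin cTG replicate 2 was left out. For Tnni3 the non-overlap held in CPM as well, where WT spanned 2639 to 2800 and Pontin cTG 2958 to 3825. Dnaaf3 overlaps the Tnni3 row on the same strand but had only 89 to 161 reads, against at least 34813 for Tnni3.

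Tnni1, the slow skeletal and foetal troponin I (chr1:135707172-135738727, plus strand), was nearly absent, with 3, 1 and 4 reads in WT and 2, 2 and 1 in Pontin cTG. Summed over a group these were 8 reads in WT, or 0.208 CPM (95% Poisson interval 0.0899 to 0.410), and 5 in Pontin cTG, or 0.107 CPM (0.0347 to 0.250). Tnni3 outnumbered Tnni1 per kb by at least 15530 to 1 in every library. The log2 Tnni1 to Tnni3 ratio was -14.71 ± 1.04 (SD, n = 3) in WT and -15.84 ± 0.77 (SD, n = 3) in Pontin cTG, with a two-sided exact permutation p of 0.3. From summed counts the Pontin cTG ratio was 0.406 of the WT ratio, with a counting interval of 0.104 to 1.41 that includes no difference. Adjusted over the 3 pairs, the permutation p-values were 0.9 for each.

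**Figure D3:**
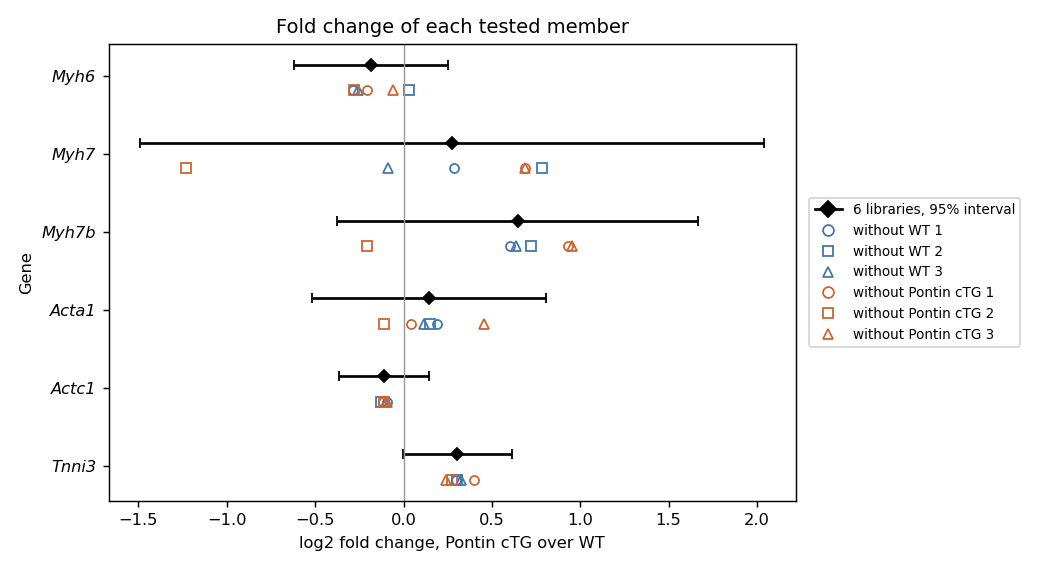
The log2 fold change of Pontin cTG over WT for the 6 tested isoforms (black diamonds, 95% interval) and after leaving out each library in turn (open symbols). Leaving out Pontin cTG replicate 2 takes Myh7 from 0.28 to -1.23 and Myh7b from 0.65 to -0.21, while Tnni3 and Actc1 stay on 1 side of 0.

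The genes whose profile over the 6 libraries was nearest to that of a foetal isoform were found among the 9343 genes by the root mean square (RMS) difference of log2 normalised counts, each centred on its mean. For Myh7, whose own RMS deviation was 1.07, they were Ifi203-ps (0.29), Snhg14 (0.34) and Ccnl1 (0.38). Ccnl1, a cyclin linked to splicing, had 254, 452 and 190 normalised counts in WT and 184, 694 and 174 in Pontin cTG, and so repeated the Myh7 pattern of WT replicate 2 and Pontin cTG replicate 2 at the top. For Acta1, whose own RMS deviation was 0.42, they were Myo7a (0.11), an unconventional myosin, Per2 (0.12), a circadian clock gene, and Col15a1 (0.13), a basement membrane collagen. Per2 had 117, 104 and 89.4 normalised counts in WT and 140, 175 and 54.6 in Pontin cTG. This likeness is a description over 6 libraries, and no sarcomere gene was among the 6 nearest.

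Nuclear-retained RNAs, looked at after these neighbours were seen, had the same high libraries. Neat1 measured 2637, 5126 and 2589 normalised counts in WT and 1742, 12530 and 1741 in Pontin cTG. Malat1 measured 2190, 3803 and 1884 in WT and 1858, 4136 and 2026 in Pontin cTG. Their part in the Myh7, Myh7b and Mhrt values was not tested.

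The other listed genes of the sarcomere and cytoskeleton, 32 genes of which 25 could be tested, did not move in 1 direction between genotypes. In the edgeR fit 13 were higher and 12 lower, 0 were called (0 at an unadjusted p under 0.05, 0 called by DESeq2 and by limma-voom), and the median log2 fold change was 0.02, beside 0.00 over all genes tested. Of the foetal, skeletal, smooth muscle or non-muscle forms, 13 of 20 could be tested, and 10 of these 13 had their highest value in Pontin cTG replicate 2, as did 27.4% of the 9343 genes. The sets are not alike, since Myl4 and Actg2 among the 13 lay below the floor of 100 normalised counts of the 9343. The 7 that could not be tested for low counts included the embryonic and perinatal myosins Myh3 and Myh8 and the atrial light chain Myl7. For the 13 tested forms the median log2 fold change went from 0.02 to -0.11 without Pontin cTG replicate 2 and to 0.14 without Pontin cTG replicate 3.

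Within this group Myl4, the atrial and foetal essential light chain, had 8.81, 21.3 and 23.5 normalised counts in WT and 28.3, 43.7 and 21.7 in Pontin cTG, overlapping groups at a low level (log2 fold change 0.80 ± 0.44 SE, unadjusted p = 0.101 by edgeR). Omitting Pontin cTG replicate 2 gave 0.48, as did omitting WT replicate 1. Tpm2, β-tropomyosin, had 392, 284 and 320 in WT and 363, 526 and 393 in Pontin cTG (0.37 ± 0.18 SE, unadjusted p = 0.076 by edgeR), and its log2 fold change was 0.19 without Pontin cTG replicate 2. Actg2, enteric smooth muscle actin, had the lowest log2 fold change with all libraries, -0.46, at 9.53 to 26.8 normalised counts, and it lay between -0.75 (Pontin cTG replicate 2 left out) and -0.20 (replicate 3 of that group left out). Omitting WT replicate 3 gave -0.28.

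The other list holds 12 sarcomere genes of the adult heart, all tested, of which 5 were higher and 7 lower. Several of them, such as Ttn, Actn2, Ldb3 and the kinase gene Mylk3, have no foetal partner in the lists. The counts of this list therefore do not describe an isoform switch. For 3 of them, Myl2, Myl3 and Tpm1, every Pontin cTG library was above every WT library, in the same direction as Tnni3, beside the 4.7% of all genes given above. This held in CPM too, for all 3 genes. Myl2, the ventricular regulatory light chain, had 75320, 72380 and 71470 normalised counts in WT and 80170, 92480 and 86220 in Pontin cTG (log2 fold change 0.24 ± 0.12 SE, unadjusted p = 0.084 by edgeR). Myl3, the ventricular essential light chain, had 64890, 52620 and 70470 in WT and 72000, 73970 and 73890 in Pontin cTG (0.23 ± 0.14 SE, and 0.11 without WT replicate 2). The M-band protein Myom2 had the lowest log2 fold change of the list with all libraries, -0.25, with overlapping groups, and omitting Pontin cTG replicate 3 gave -0.14.

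The 28 known or proposed regulators of these isoforms, all of them tested, gave 10 higher and 18 lower and 0 called by edgeR (0 at an unadjusted p under 0.05, 0 called by DESeq2 and by limma-voom). Their median log2 fold change was -0.10, and 0.01 without Pontin cTG replicate 2, in which 19 of the 28 had their lowest value, as did 37.7% of the 9343 genes. Here too the sets are not alike, since Tead4 and Nfatc4 among the 28 lay below the floor of 100 normalised counts of the 9343. Tead3, a TEAD factor of the family that binds the MCAT box shown above, had 110, 113 and 113 normalised counts in WT and 145, 177 and 121 in Pontin cTG, without overlap (log2 fold change 0.40 ± 0.18 SE, unadjusted p = 0.059 by edgeR, and 0.24 without Pontin cTG replicate 2). The TEAD genes did not move together. Tead1, far more abundant, had 4169, 3028 and 4110 in WT and 4029, 1615 and 3025 in Pontin cTG. Its groups overlapped, and its log2 fold change was -0.38. Omitting Pontin cTG replicate 2 gave -0.10 for Tead1 and omitting replicate 1 of that group gave -0.69. Tead4 had a log2 fold change of 0.02. Mef2c, a MADS-box factor of muscle genes, had 1236, 1121 and 1198 in WT and 1067, 867 and 1003 in Pontin cTG, without overlap (-0.28 ± 0.13 SE, unadjusted p = 0.066 by edgeR). Groups thus did not overlap for 1 of the 28 in each direction, beside 4.7% (higher) and 3.63% (lower) of all genes tested.

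Myocardin (Myocd), the co-activator of serum response factor, had 1089, 707 and 1024 normalised counts in WT and 936, 350 and 794 in Pontin cTG, with a log2 fold change of -0.44. Omitting Pontin cTG replicate 2 gave -0.12 and omitting replicate 1 of that group gave -0.71. Mrtfb, a relative of myocardin, had 447, 474 and 546 in WT and 465, 381 and 366 in Pontin cTG (-0.28 ± 0.14 SE, and -0.18 without WT replicate 3). The product of the thyroid hormone receptor gene Thra raises Myh6 and lowers Myh7 in the textbook account. Thra had its lowest value, 791 normalised counts, in Pontin cTG replicate 2 and 985 to 1461 in the other libraries. In this it was 1 of the 19 of 28 regulators lowest in that library, and its part in the Myh7 values was not tested. The log2 fold change of Thra, 0.01, lay between -0.19 and 0.22 when libraries were left out in turn.

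The foetal natriuretic peptides and stress genes gave 0 calls of 14 tested (6 higher and 8 lower, 0 at an unadjusted p under 0.05 by edgeR, and 0 called by DESeq2 and by limma-voom), with a median log2 fold change of -0.03. Nppa, the atrial natriuretic peptide gene, spread most: 1551, 858 and 1842 normalised counts in WT and 1205, 7716 and 360 in Pontin cTG. Its log2 fold change was 1.13 ± 0.91 (SE, unadjusted p = 0.249 by edgeR) and -0.86 without Pontin cTG replicate 2. Nppb, the B-type natriuretic peptide gene, had 3687, 2561 and 4077 in WT and 2644, 6422 and 2546 in Pontin cTG. Atp2a2, the calcium pump of the sarcoplasmic reticulum, had its lowest value, 98170, in that same library and 176500 to 194100 in the other 5.

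Pontin cTG replicate 2 thus held the highest Myh7, Myh7b, Acta1, Nppa and Nppb and the lowest Atp2a2 of the 6 libraries. Of the 14 tested peptide and stress genes, 4 had their highest value and 3 their lowest value in that library. Among the 9343 genes these shares were 27.4% and 37.7%, and 65.2% had either, so the list as a whole was not set apart there. The sets are not alike, since Cpt1b among the 14 lay below the floor of 100 normalised counts. WT replicate 2, which was next for Myh7 at 11960, had at 858 a low Nppa value and at 176500 an Atp2a2 value near the rest, so high Myh7 did not go with high Nppa in that heart. In Pontin cTG replicate 3, the library lowest for Acta1, Nppa was lowest too.

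**Figure D4:**
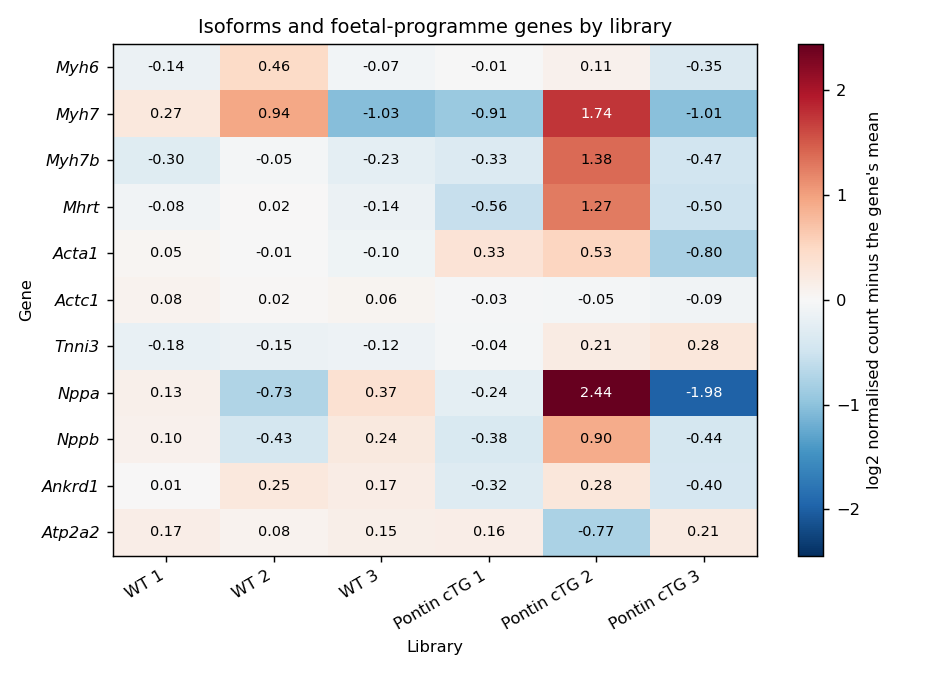
Log2 normalised count minus the gene's mean over the 6 libraries (columns) for the isoforms tested, Mhrt and foetal-programme genes (rows), with red above and blue below the mean. Pontin cTG replicate 2 is high for Myh7 (1.74), Myh7b (1.38), Mhrt (1.27) and Nppa (2.44) and low for Atp2a2 (-0.77), whereas Actc1 is within 0.1 of its mean in every library.

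Among the remaining foetal-programme genes, Slc2a1, the foetal-type glucose transporter, had 165, 149 and 157 normalised counts in WT and 187, 184 and 195 in Pontin cTG, with no overlap (log2 fold change 0.26 ± 0.14 SE, unadjusted p = 0.084 by edgeR). Cpt1a, the carnitine palmitoyltransferase of liver and foetal heart, had 846, 969 and 855 in WT and 834, 736 and 716 in Pontin cTG, also without overlap but in the opposite direction (-0.23 ± 0.13 SE); in CPM its groups overlapped. Non-overlap in either direction was seen for 8.33% of all genes tested. Ankrd1, a stress-induced titin-associated protein, had 14430, 17160 and 16210 in WT and 11550, 17520 and 10890 in Pontin cTG, and Igf1 had the lowest log2 fold change of this list with all libraries, -0.32, which lay between -0.55 and -0.08 when libraries were left out in turn.

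**Figure D5:**
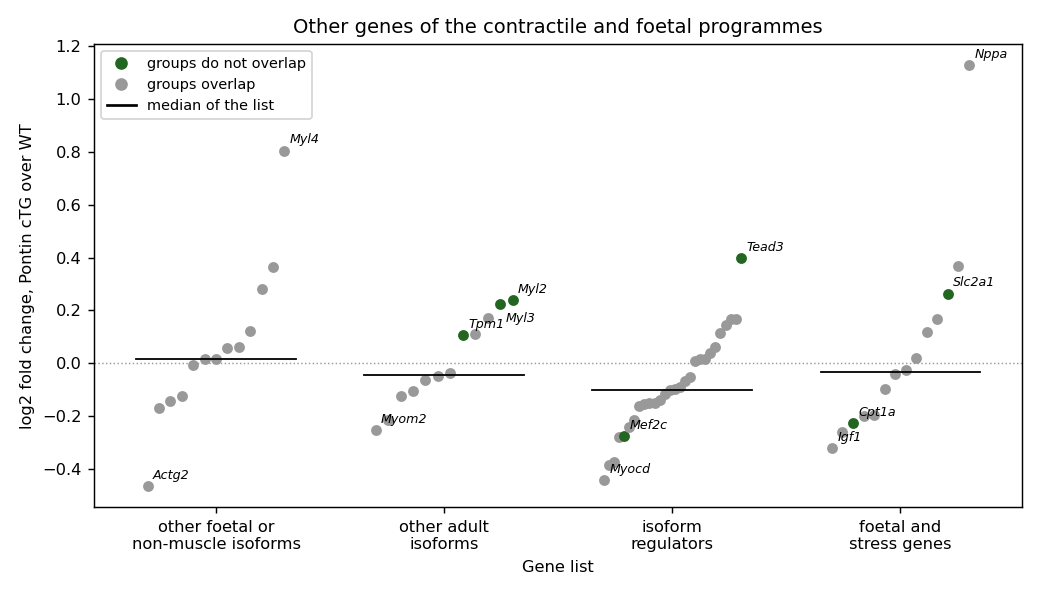
The log2 fold change of Pontin cTG over WT for each tested gene of 4 lists, with green points where the groups do not overlap and a black line at the median of the list. Medians lie between -0.10 and 0.02, and Nppa (1.13) and Myl4 (0.80) are the highest points, which became -0.86 and 0.48 without Pontin cTG replicate 2.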

How the data were processed

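RNA from heart tissue was sequenced in 3 WT and 3 Pontin cTG mice, labelled as biological replicates. The deposited table holds raw read counts per gene, made by the authors with fastp, HISAT2 and featureCounts on GRCm39 (mm39) according to the submitters' processing notes, with no versions. The study's methods instead name other trimming and alignment tools and an older build for its sequencing. The kit they name does not mark strand, and the counting's strand setting is not given in the sources used here. The authors' methods mention an outlier found by principal components; all 6 deposited libraries were used here. Coordinates and gene lengths are those of the table; sequences come from RefSeq tables on GRCm38.p6, which matched all 7 members, and the builds were not mixed.

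Genes were filtered with edgeR 4.0.16 (filterByExpr, minimum count 10), which left 13888 of 56748, scaled by TMM and tested with the quasi-likelihood test on genotype in R 4.3.3, with Benjamini-Hochberg adjustment over all genes tested and a threshold of 0.05. Normalised counts are counts divided by the library's TMM-scaled size relative to the mean. Ratios within a library are counts per kb of the table's gene length, compared by an exact permutation test in scipy 1.17.1. Profiles used log2 of the normalised count plus 0.5. Library totals were 12436822 to 16888124 counts, and low counts limit the precision for Tnni1, the untested isoforms, Myl4, Actg2 and the microRNA rows. The lowest chi-square per gene between any 2 libraries was 5.62, so every library was counted as a separate sample. Alternatives were DESeq2 1.42.0, limma-voom (limma 3.58.1) with sample quality weights, DESeq2 size factors, library size alone, other filters on low counts, no mitochondrial genes, a replicate block and leaving out each library. The model was tested on simulated data.

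The members, gene lists and marker lists were chosen with earlier results of these data known. Besides the members, the text names from each list the 3 tested genes with the smallest unadjusted p, any called, and those with the highest and lowest log2 fold change, then the 3 genes nearest in profile to Myh7 and Acta1, and Ruvbl1. Tnni1 had too few counts for a profile. Mhrt, Gm31251, Gm49130, the microRNA rows, Trpc4ap, Dnaaf3, Neat1, Malat1, Tpm1, Thra, Tead1, Tead4, Nppb and Atp2a2 were added after their values were seen.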

Additional observations from a re-analysis of the deposited data

How the results depend on the processing

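Of 84 member fold changes recomputed under 14 alternatives, 75 kept their direction and 9 turned, and the adjusted p stayed between 0.855 and 0.9998. Under limma-voom with sample quality weights Myh7 was -0.74, Myh7b -0.0085 and Acta1 -0.025 on the log2 scale. With the replicate block Myh7 was -0.11, and members called remained 0. Without Pontin cTG replicate 2 Myh7 was -1.23, Myh7b -0.21 and Acta1 -0.11; without WT replicate 3 Myh7 was -0.09, and without WT replicate 2 Myh6 was 0.033. Leaving out 1 library at a time, the log2 fold change ranged from -0.29 to 0.03 for Myh6, -1.23 to 0.78 for Myh7, -0.21 to 0.95 for Myh7b, -0.11 to 0.45 for Acta1, -0.13 to -0.09 for Actc1 and 0.24 to 0.40 for Tnni3. The Myh7 to Myh6 difference ranged from -0.75 to 0.51 (-0.42 without WT replicate 3), Acta1 to Actc1 from -0.10 to 0.55 and Tnni1 to Tnni3 from -1.73 to -0.71; by summed counts they were 0.50, 0.25 and -1.30. Paired by replicate number as a block, the ratio differences kept their values, with exact sign-flip permutation p of 1.0, 0.75 and 0.5. The same-numbered samples share only a number (correlations of deviations 0.0772, 0.432 and 0.193), so the block was not used in the main comparison.

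Members and genes of the 3 other lists called stayed at 0 under every alternative. Over all genes, 0 calls became 1 under DESeq2 (Scd4), 3 under limma-voom (Scd4, Egr1 and Impact), 3 without a filter on low counts (Tfrc, Scd4 and Npc1) and 3 without Pontin cTG replicate 2 (Scd4, Egr1 and Impact), with 0 to 3 over the libraries left out. The cause was not tested. With 3 hearts a group the 95% interval of the Myh7 difference ran from -1.49 to 2.04, and low counts kept Tnni1 out of the edgeR fit.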
